A study of Mus musculus with 24 samples.

Results

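The 41 genes described here encode proteins that make ribosomes in the nucleolus, and they were chosen by gene symbol, by a rule that used no measured level but was written with earlier results of these data known. They are 41 of the 49315 genes in the deposited count table, and all 41 were abundant enough to be among the 16070 genes tested. By their known roles they fall into 6 groups, namely 2 subunits of RNA polymerase I (*Polr1a* and *Polr1b*), 3 core proteins of box C/D small nucleolar ribonucleoproteins (*Fbl*, *Nop56* and *Nop58*), 4 core proteins of box H/ACA small nucleolar ribonucleoproteins (*Dkc1*, *Nhp2*, *Nop10* and *Gar1*), 4 nucleolar phosphoproteins and GTPases (*Ncl*, *Npm1*, *Nolc1* and *Gnl3*), 16 small subunit assembly factors and 12 large subunit assembly factors.

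The study measured how the transcriptome of MS03 cells changed when focal adhesion kinase (FAK, encoded by *Ptk2*) was targeted. MS03 is a mouse line made by introducing Cre into immortalized Schwann cells from an *Nf2* flox/flox mouse, so every culture, controls included, carried the Nf2-/- genotype, and the line has no *Nf2*-intact counterpart in these data. *Nf2* mRNA averaged 158 to 189 CPM over the 8 groups, but a count over the whole gene cannot show whether its floxed part was deleted, so it does not check the genotype. Cultures received for 24 hours either the solvent DMSO, or 1 μM of a kinase inhibitor (defactinib, VS-4718, GSK2256098 or IN10018, also named ifebemtinib), or a PROTAC. A PROTAC joins a part that binds FAK to a part that recruits an E3 ubiquitin ligase, so that the FAK protein is degraded. The dose was 1 μM for PROTAC FAK degrader 1 but 0.1 μM for GSK215 and BSJ-04-0146, and each of the 8 groups had 3 libraries that the submitters labelled as biological replicates of this single line. Nothing further describes how the cultures were kept apart, so *P* values measure the spread between these libraries.

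Library totals ranged from 14472462 to 27449516 counts with a median of 22606532.5, the GSK215 and BSJ-04-0146 libraries being the shallowest, and each of the 41 genes had 532 to 86953 counts in every library. Expression is given as CPM, the count of a gene relative to the TMM-scaled total of its library, and each change as a log2 fold change ± SE from edgeR's quasi-likelihood test, with *P* values adjusted by the Benjamini-Hochberg method over the 16070 genes of a comparison and a threshold of 0.05. The mitochondrial share of counts was 3.03 to 3.06% with DMSO, 1.85 to 1.89% with PROTAC FAK degrader 1 and 3.83 to 4.25% with GSK215. Of 7 Schwann cell markers, 6 had more than 3 counts in every DMSO library, whereas *S100b* had 1 to 5 counts. The summed level of the 7 markers was 56.0 to 59.5 CPM with DMSO, 50.3 to 56.8 CPM with PROTAC FAK degrader 1, 234 to 246 CPM with GSK215, 213 to 232 CPM with BSJ-04-0146, 116 to 131 CPM with VS-4718 and 58.6 to 87.1 CPM with the 3 remaining inhibitors. Of 4 fibroblast markers *Lum* was at 0 and *Dpt* at 0 in the DMSO libraries, but the summed level of the 4 was 395 to 414 CPM there, nearly all of it *Col1a1*, and it was 291 to 298 CPM with PROTAC FAK degrader 1, 470 to 476 CPM with GSK215, 361 to 393 CPM with BSJ-04-0146 and 383 to 515 CPM with the inhibitors. The 4 macrophage markers summed to 3.48 to 4.00 CPM with DMSO, 10.8 to 11.7 CPM with PROTAC FAK degrader 1, most of it *Cd68*, 5.93 to 7.62 CPM with GSK215, 7.602 to 9.040 CPM with BSJ-04-0146 and 3.61 to 6.02 CPM with the inhibitors, with *Ptprc* and *Adgre1* at 0 in the DMSO libraries. The 4 endothelial markers summed to at most 0.790 CPM in a library. The part of these shifts in the results below was not tested, and in bulk RNA fewer cells of a type and less RNA per cell cannot be told apart. *Ptk2* mRNA was between -0.29 ± 0.036 (GSK215) and 0.03 ± 0.035 (PROTAC FAK degrader 1) on the log2 scale relative to DMSO, which does not measure the FAK protein that PROTACs act on. It passed the threshold as lower with GSK215 (adjusted p = 6.47e-09), BSJ-04-0146 (9.62e-08), VS-4718 (6.53e-05), defactinib (0.00253) and GSK2256098 (0.0101). With IN10018 (0.183) and PROTAC FAK degrader 1 (0.396) it missed the threshold.

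Ribosome biogenesis begins in the nucleolus, where RNA polymerase I transcribes the precursor of the large ribosomal RNAs. Box C/D particles guide ribose methylation of that precursor and box H/ACA particles guide its pseudouridylation, while the small subunit processome and the pre-60S particles fold and cut it and load ribosomal proteins. The pathway consumes a large share of the energy of a growing cell, many of its genes are known targets of MYC, and in Schwann cells, as in other cells, its output follows growth signals.

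Promoter sequence is shown for 5 genes picked for a motif or for their response, and they do not represent the 41 genes. *Utp18* carried both of the motifs found, *Imp4* carried the only other E-box, *Nolc1* and *Heatr1* were among the genes with the largest decreases, and *Nop10* was higher with 4 of the 7 compounds. Each is the 250 bases upstream of the RefSeq transcription start, on GRCm38.p6, written 5′ to 3′ on the strand of the gene, and the capitals mark the motifs.
*Utp18* promoter, chr11:93885767-93886016, minus strand: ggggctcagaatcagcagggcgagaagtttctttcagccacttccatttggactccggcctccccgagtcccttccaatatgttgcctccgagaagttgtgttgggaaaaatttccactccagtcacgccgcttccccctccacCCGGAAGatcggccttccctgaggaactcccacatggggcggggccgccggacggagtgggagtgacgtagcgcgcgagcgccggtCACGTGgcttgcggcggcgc
*Imp4* promoter, chr1:34439579-34439828, plus strand: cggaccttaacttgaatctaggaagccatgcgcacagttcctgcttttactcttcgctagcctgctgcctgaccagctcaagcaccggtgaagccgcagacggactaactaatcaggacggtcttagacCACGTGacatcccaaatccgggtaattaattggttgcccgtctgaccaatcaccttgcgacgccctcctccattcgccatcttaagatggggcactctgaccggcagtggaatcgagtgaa
*Nolc1* promoter, chr19:46075597-46075846, plus strand: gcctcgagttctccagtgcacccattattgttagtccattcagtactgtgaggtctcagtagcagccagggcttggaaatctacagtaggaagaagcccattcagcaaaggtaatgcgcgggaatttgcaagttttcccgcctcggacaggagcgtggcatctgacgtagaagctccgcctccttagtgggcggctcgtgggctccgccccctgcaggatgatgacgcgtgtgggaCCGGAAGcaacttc
*Heatr1* promoter, chr13:12395125-12395374, plus strand: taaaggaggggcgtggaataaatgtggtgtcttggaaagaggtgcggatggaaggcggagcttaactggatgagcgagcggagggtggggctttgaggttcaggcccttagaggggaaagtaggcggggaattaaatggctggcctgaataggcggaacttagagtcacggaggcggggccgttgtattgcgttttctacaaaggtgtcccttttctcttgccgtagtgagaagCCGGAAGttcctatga
*Nop10* promoter, chr2:112261676-112261925, plus strand: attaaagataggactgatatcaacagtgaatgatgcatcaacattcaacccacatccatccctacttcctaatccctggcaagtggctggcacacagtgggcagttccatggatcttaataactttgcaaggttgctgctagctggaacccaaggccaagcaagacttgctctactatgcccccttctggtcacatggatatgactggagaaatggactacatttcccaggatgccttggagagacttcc
RefSeq windows were matched for 35 of the 41 genes, 39 windows in all, and there was no entry for *Fbl*, *Npm1*, *Rrs1*, *Bop1*, *Rrp12* and *Dcaf13*. The canonical E-box CACGTG, a palindrome that MYC and MAX can bind, was in the window of 2 of 35 genes (5.71%), *Utp18* and *Imp4*, compared with 6.86% of 27025 genes with a window. Those 27025 genes were not limited to the genes tested. Sequence downstream of the start was not searched, so E-boxes there would be missed. The ETS-type motif CCGGAAG, searched on both strands, was in the windows of 6 of 35 genes (17.1%), *Gar1*, *Heatr1*, *Nhp2*, *Nip7*, *Nolc1* and *Utp18*, compared with 7.83% of all. In *Nolc1* and *Heatr1* it began 14 and 16 bases upstream of the RefSeq start and in *Utp18* 106 bases upstream. The E-box of *Utp18* began 20 bases upstream and that of *Imp4* 121 bases upstream. GENCODE M21 starts *Heatr1* earlier, at 12395027, so the *Heatr1* window lies inside the gene of that annotation. The motifs do not overlap each other in these windows, and a match describes the letters and not binding. *Bysl*, *Utp20*, *Polr1b* and *Nop56*, also among the deepest decreases with PROTAC FAK degrader 1, had neither motif in their windows. A link between motif and response was not tested.

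Each of the 7 compounds lowered more of the 41 genes than it raised. The median log2 fold change of the 41 genes was between -0.64 and -0.52 for the 3 PROTACs and between -0.15 and -0.088 for the 4 kinase inhibitors. PROTAC FAK degrader 1 lowered 38 and raised 1 of 41, where 32.7% of all genes tested were lower and 34.1% higher, and the median change was -0.64 beside 0.0045 over all genes tested. GSK215 lowered 39 and raised none of 41 (27.2% of all genes were lower and 27.4% higher), with a median of -0.52 beside 0.021 over all genes. BSJ-04-0146 lowered 40 and raised 1 of 41 (26.9% of all genes were lower and 27.7% higher), with a median of -0.52 beside 0.018 over all genes. These medians correspond to 64.3, 69.7 and 69.5% of the DMSO level.

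With each kinase inhibitor between 18 and 26 of the 41 genes were lower. VS-4718 lowered 26 and raised 2 of 41, where 18.9% of all genes were lower and 20.4% higher, with a median change of -0.15. IN10018 lowered 22 and raised 2 (6.85% of all genes were lower and 6.44% higher), with a median of -0.11. Defactinib lowered 18 and raised none (11.0% of all genes were lower and 11.4% higher), with a median of -0.088, and GSK2256098 lowered 18 and raised 1 (6.09% of all genes were lower and 6.36% higher), with a median of -0.092. The medians over all genes tested lay between -0.0044 and 0.0048 for these 4 compounds. The 95% intervals of the genes that did not pass the threshold lay within -0.22 and 0.20 for every kinase inhibitor. All 7 comparisons share the same 3 DMSO libraries.

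Libraries of a treatment often lay wholly below those of DMSO. No treated library reached the lowest DMSO library for 38 of 41 genes with PROTAC FAK degrader 1 (34.0% of all genes tested), 39 with GSK215 (30.2%) and 40 with BSJ-04-0146 (29.1%). The same held for 28 genes with defactinib (18.2%), 30 with VS-4718 (22.8%), 29 with GSK2256098 (15.8%) and 28 with IN10018 (15.9%). The 41 genes together took 1.34 ± 0.0086% of all counts with DMSO (SD, n = 3), 1.27 ± 0.0058% with IN10018, 1.25 ± 0.0016% with GSK2256098, 1.23 ± 0.014% with defactinib and 1.11 ± 0.022% with VS-4718. They took 0.991 ± 0.014% with PROTAC FAK degrader 1, 0.939 ± 0.0026% with GSK215 and 0.908 ± 0.0030% with BSJ-04-0146. These are shares of the RNA sequenced and do not give RNA per cell. *Ncl* and *Npm1* alone made up 45.1 to 45.5% of the counts of the 41 genes with DMSO. They made up 50.5 to 51.0% with PROTAC FAK degrader 1, 40.2 to 40.9% with GSK215 and BSJ-04-0146 and 38.9 to 46.7% with the inhibitors. The summed share thus leans on *Ncl* and *Npm1*. It was lowest with BSJ-04-0146, whereas the median change of the 41 genes was lowest with PROTAC FAK degrader 1 (-0.64). With library totals in place of TMM the median of all genes rose to 0.14 with GSK215 and 0.13 with BSJ-04-0146. Relative to that median the 41 genes stood at -0.54 in both comparisons under either scaling. A scaling factor shifts all genes of a library alike, so this agreement was fixed in advance and does not check the scaling.

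**Figure D1:**
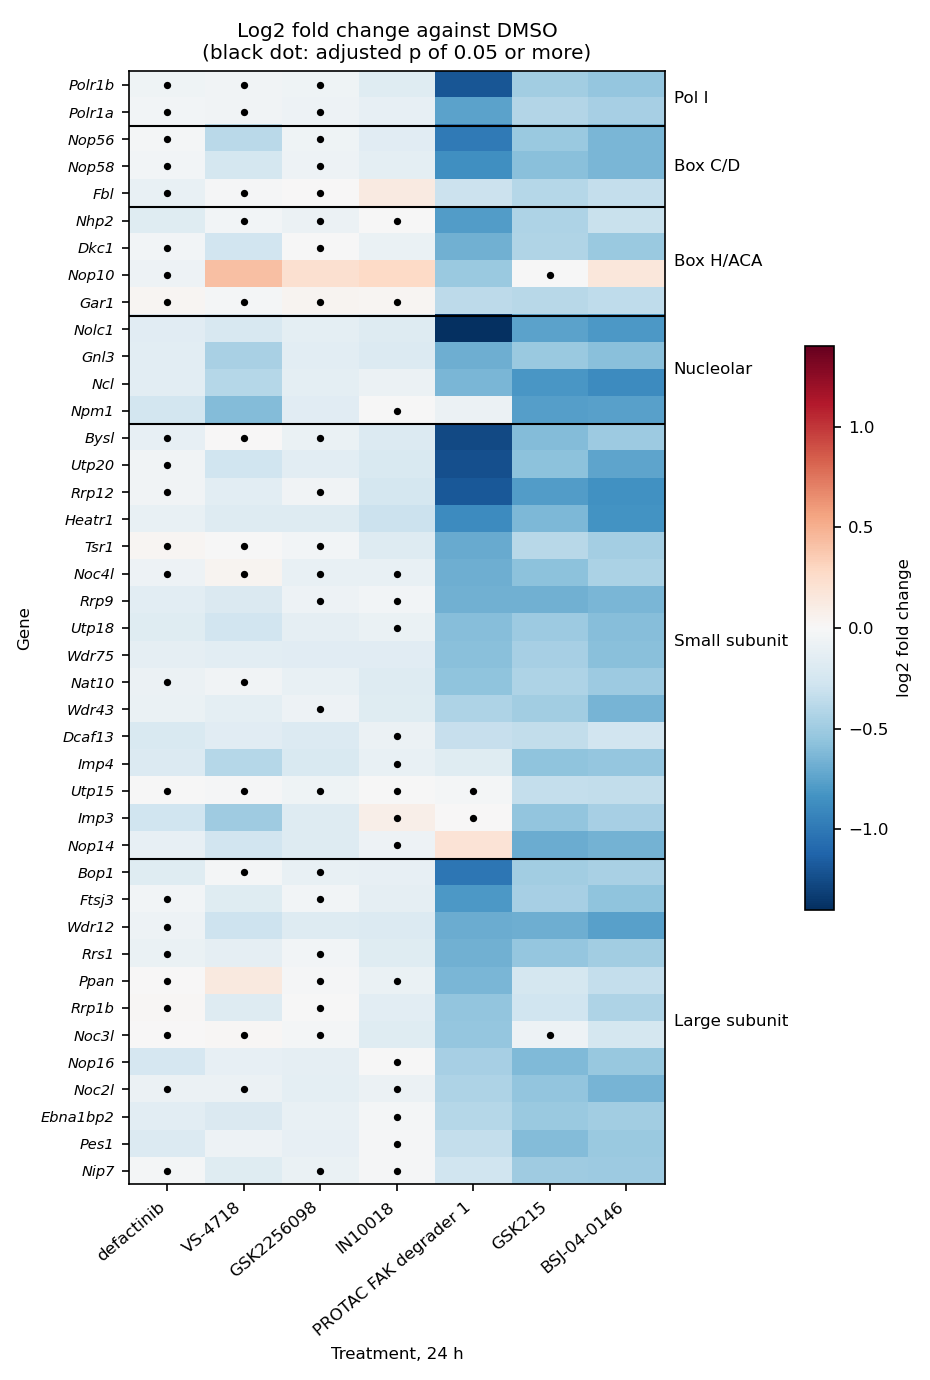
Log2 fold change against DMSO after 24 h for each of the 41 genes (rows, grouped by role and ordered by the change with PROTAC FAK degrader 1) and each compound (columns, 0.1 μM for GSK215 and BSJ-04-0146 and 1 μM for the others), with a black dot where the adjusted p was 0.05 or more. The 3 PROTAC columns are blue in nearly every row, with 38, 39 and 40 of 41 genes lower, and *Nop14* with PROTAC FAK degrader 1 (0.19) and *Nop10* with BSJ-04-0146 (0.15) are the exceptions that were higher.

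**Figure D2:**
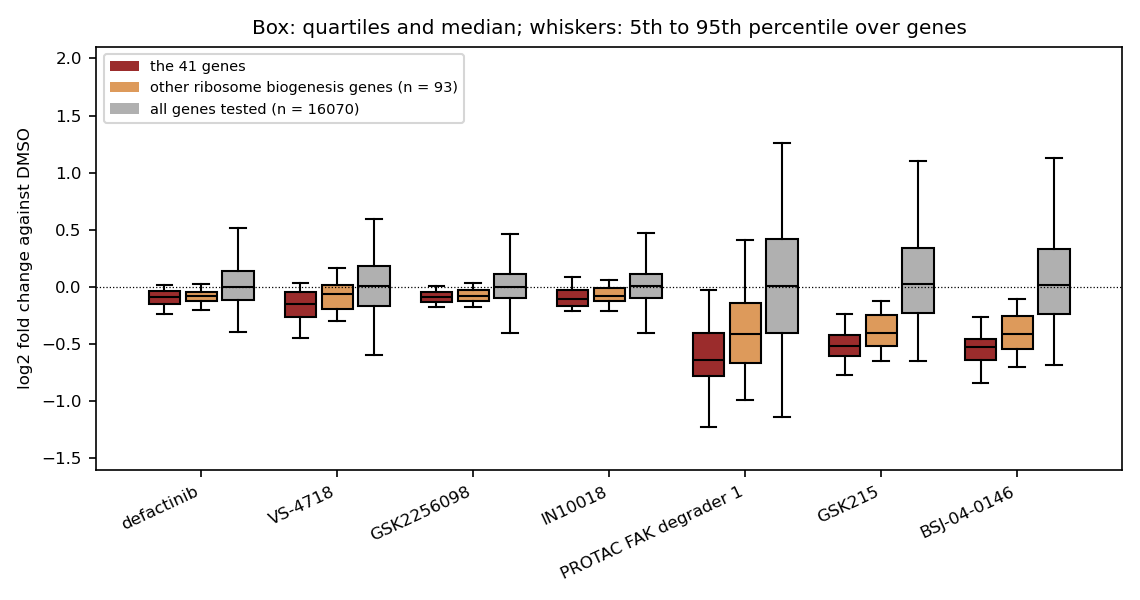
Log2 fold change against DMSO for the 41 genes (red), 93 other ribosome biogenesis genes (orange) and all 16070 genes tested (grey), with boxes for the quartiles and median and whiskers from the 5th to the 95th percentile over genes. The red medians lie between -0.15 and -0.088 for the 4 kinase inhibitors and between -0.64 and -0.52 for the 3 PROTACs, whereas the grey medians lie between -0.0044 and 0.021.

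All 7 comparisons used the same 3 DMSO libraries, so the calls of a gene across compounds are not independent and their number is given as a description. *Nop10* was lower with 1 compound and higher with 4. *Nop14*, *Ppan* and *Fbl* were each higher with 1 compound and lower with 5, 3 and 3. The groups by role hold 2 to 16 genes each, and their counts below stand beside the shares of all genes tested. Those lower were 32.7% with PROTAC FAK degrader 1, 27.2% with GSK215 and 26.9% with BSJ-04-0146. They were 18.9% with VS-4718, 11.0% with defactinib, 6.85% with IN10018 and 6.09% with GSK2256098.

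Both subunits of RNA polymerase I were lower with all 3 PROTACs and with IN10018, and neither passed the threshold with defactinib, VS-4718 or GSK2256098. *Polr1b*, a subunit of the catalytic core (chr2:129100995-129126594, plus strand, GENCODE M21 on GRCm38), measured 134, 138 and 135 CPM with DMSO and 58.6, 58.3 and 59.9 CPM with PROTAC FAK degrader 1. It measured 94.3, 96.5 and 98.8 CPM with GSK215 and 93.29, 90.05 and 95.01 CPM with BSJ-04-0146. With the kinase inhibitors it measured 132, 131 and 127 CPM (defactinib), 128, 134 and 130 CPM (VS-4718), 129, 129 and 132 CPM (GSK2256098) and 120, 114 and 126 CPM (IN10018). Every PROTAC library lay below every DMSO and kinase inhibitor library, those of PROTAC FAK degrader 1 lowest. The change was -1.20 ± 0.037 (adjusted p = 2.96e-27) with PROTAC FAK degrader 1, -0.49 ± 0.035 (4.32e-15) with GSK215 and -0.55 ± 0.035 (1.77e-16) with BSJ-04-0146. It was -0.17 ± 0.034 (adjusted p = 0.000352) with IN10018, and between -0.061 and -0.054 with the 3 inhibitors that missed the threshold, the smallest adjusted p among these being 0.207. *Polr1a*, the largest subunit, changed by -0.75 ± 0.033, -0.41 ± 0.032 and -0.46 ± 0.032 with the same PROTACs in that order.

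Among the nucleolar phosphoproteins and GTPases, all 4 genes were lower with 6 of the 7 compounds and 3 of 4 with IN10018. *Ncl*, which encodes nucleolin, a histone and RNA chaperone of the nucleolus (chr1:86344719-86359400, minus strand), measured 3328, 3269 and 3247 CPM with DMSO. It measured 3049, 2876 and 2950 CPM with defactinib, 2414, 2438 and 2602 CPM with VS-4718, 2939, 3006 and 3028 CPM with GSK2256098 and 3115, 3081 and 3076 CPM with IN10018. With the PROTACs it measured 2125, 2145 and 2062 CPM (PROTAC FAK degrader 1), 1851, 1880 and 1865 CPM (GSK215) and 1786, 1772 and 1802 CPM (BSJ-04-0146). Every treated library lay below every DMSO library, and VS-4718 stood apart from the other kinase inhibitors. *Ncl* had the largest decrease of the 41 genes with both low-dose PROTACs, -0.81 ± 0.029 (adjusted p = 1.36e-24) with GSK215 and -0.88 ± 0.029 (1.17e-25) with BSJ-04-0146. It fell by 0.64 with PROTAC FAK degrader 1, 0.40 with VS-4718, 0.15 with defactinib and 0.13 with GSK2256098. With IN10018 the change of *Ncl* was -0.086 ± 0.029 (adjusted p = 0.0389), and this call was lost when any 1 of the 6 libraries concerned was left out (adjusted p from 0.0608 without DMSO replicate 3 to 0.132 without DMSO replicate 1). The same call was also lost with library totals in place of TMM (0.0592), by limma-trend (0.104) and without the filter on low counts (0.11).

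*Nolc1*, a chaperone of small nucleolar particles (chr19:46075863-46085530, plus strand), had the largest decrease of all 41 genes in any comparison with DMSO. It measured 384, 378 and 387 CPM with DMSO and 148, 148 and 142 CPM with PROTAC FAK degrader 1, a change of -1.39 ± 0.030 (adjusted p = 2.95e-32) or 0.381 of the DMSO level. It measured 233, 222 and 231 CPM with GSK215 and 219, 221 and 217 CPM with BSJ-04-0146. The kinase inhibitor libraries lay between 323 and 352 CPM, below DMSO and above every PROTAC library. *Gnl3*, which encodes the GTPase nucleostemin, fell by 0.68 with PROTAC FAK degrader 1, 0.52 with GSK215, 0.59 with BSJ-04-0146 and 0.45 with VS-4718.

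*Npm1*, the nucleolar chaperone nucleophosmin (chr11:33152287-33163206, minus strand), followed another pattern. It measured 3020, 2937 and 2970 CPM with DMSO, 1772, 1713 and 1737 CPM with GSK215 and 1780, 1775 and 1697 CPM with BSJ-04-0146. With PROTAC FAK degrader 1 it measured 2882, 2828 and 2693 CPM, and with VS-4718 it measured 1908, 1955 and 1994 CPM. With defactinib it measured 2538, 2527 and 2405 CPM, with GSK2256098 2730, 2647 and 2612 CPM and with IN10018 2904, 2998 and 2961 CPM. *Npm1* was thus well below the DMSO level with VS-4718 and the low-dose PROTACs. With PROTAC FAK degrader 1 it was slightly lower and passed the threshold, each library lying below every DMSO library. With IN10018 its libraries overlapped those of DMSO and it missed the threshold. The change was -0.61 ± 0.030 (adjusted p = 3.65e-19) with VS-4718, the largest decrease of the 41 genes there, -0.77 with both low-dose PROTACs, -0.26 ± 0.030 (adjusted p = 3.53e-08) with defactinib and -0.087 with PROTAC FAK degrader 1.

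**Figure D3:**
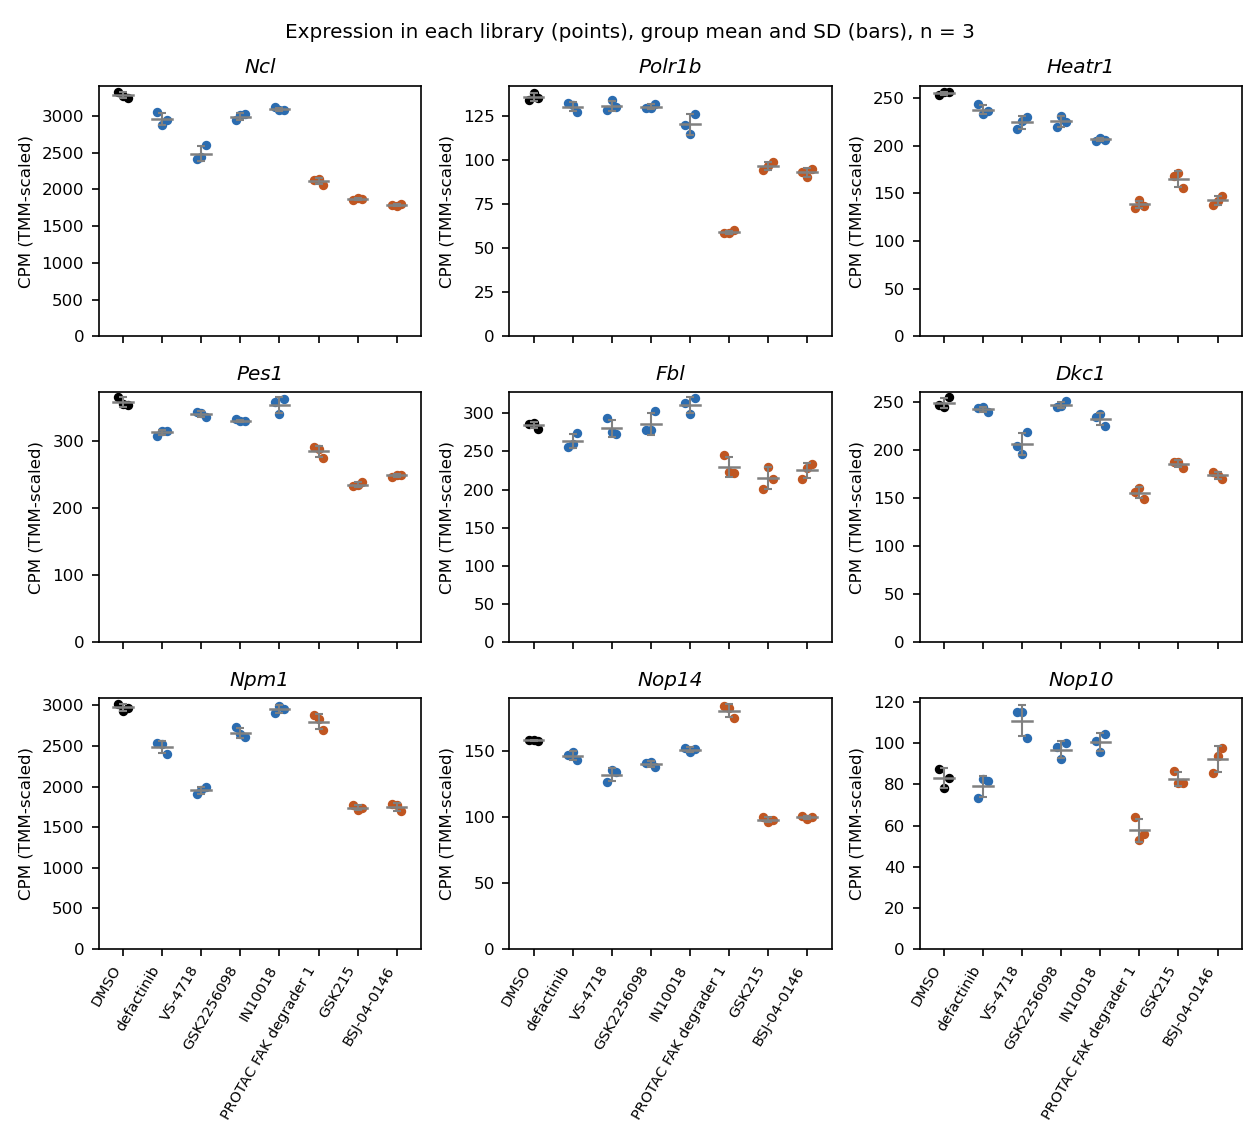
TMM-scaled CPM of 9 genes in each of the 24 libraries (points: DMSO black, kinase inhibitors blue, PROTACs orange), with the mean and SD of each group of 3 as bars and every axis starting at 0. *Ncl*, *Polr1b*, *Heatr1*, *Pes1* and *Dkc1* are lowest in the PROTAC libraries. *Npm1* is slightly below the DMSO level with PROTAC FAK degrader 1, *Nop14* is above it there and *Nop10* is above it with VS-4718, GSK2256098 and IN10018.

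The box C/D core proteins were lower with all 3 PROTACs, 3 of 3 genes each time, and differed among themselves with the kinase inhibitors. *Fbl*, the methyltransferase fibrillarin (chr7:28169710-28179269, plus strand), measured 286, 287 and 279 CPM with DMSO. It measured 245, 224 and 221 CPM with PROTAC FAK degrader 1, 201, 229 and 214 CPM with GSK215 and 214, 229 and 233 CPM with BSJ-04-0146. With the kinase inhibitors it measured 256, 260 and 275 CPM (defactinib), 293, 276 and 272 CPM (VS-4718), 278, 278 and 302 CPM (GSK2256098) and 313, 299 and 320 CPM (IN10018). The PROTAC libraries lay below DMSO without overlap, the IN10018 libraries lay above it, and those of VS-4718 and GSK2256098 overlapped it. *Fbl* changed by -0.30 ± 0.043 (adjusted p = 5.66e-08), -0.40 ± 0.043 (2.03e-10) and -0.33 ± 0.043 (1.49e-08) with PROTAC FAK degrader 1, GSK215 and BSJ-04-0146. Its rise with IN10018 was 0.13 ± 0.042 (adjusted p = 0.035), and it was lost without DMSO replicate 1 (0.0791), 2 (0.0693) or 3 (0.134) and without IN10018 replicate 1 (0.116) or 3 (0.17). That rise was also lost by limma-trend (0.0506). The change of *Fbl* was -0.11 ± 0.042 with defactinib (adjusted p = 0.061), passing at 0.0312 without defactinib replicate 3, at 0.0171 without the filter on low counts and at 0.00949 with only the 6 libraries of the comparison. Its change was -0.018 with VS-4718 and 0.0094 with GSK2256098, and it turned sign with library totals in place of TMM (0.020, VS-4718) and without GSK2256098 replicate 3 (-0.037) or DMSO replicate 3 (-0.0067). *Nop56* and *Nop58*, the scaffold proteins of the same particles, changed by -0.98 ± 0.031 and -0.86 ± 0.041 with PROTAC FAK degrader 1 and by -0.38 ± 0.031 and -0.24 ± 0.040 with VS-4718.

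Of the 4 box H/ACA genes, 4 were lower with PROTAC FAK degrader 1, 3 with GSK215 and 3 with BSJ-04-0146, where 1 was higher. *Dkc1*, the pseudouridine synthase dyskerin, which is also part of telomerase (chrX:75095854-75109777, plus strand), measured 247, 245 and 255 CPM with DMSO. It measured 157, 161 and 149 CPM with PROTAC FAK degrader 1, 188, 188 and 182 CPM with GSK215 and 177, 174 and 170 CPM with BSJ-04-0146. With the kinase inhibitors it measured 244, 245 and 240 CPM (defactinib), 204, 196 and 219 CPM (VS-4718), 245, 246 and 251 CPM (GSK2256098) and 235, 237 and 225 CPM (IN10018). The libraries of the PROTACs, VS-4718, IN10018 and defactinib lay wholly below DMSO, while those of GSK2256098 overlapped it. Defactinib was separated only narrowly, its highest library being at 244.6 CPM and the lowest DMSO library at 244.7 CPM. The decrease was -0.68 ± 0.034 (adjusted p = 3.28e-20) with PROTAC FAK degrader 1, -0.42 ± 0.034 (1.23e-13) with GSK215, -0.52 ± 0.034 (3.73e-16) with BSJ-04-0146 and -0.27 ± 0.033 (1.43e-08) with VS-4718. With IN10018 it was -0.098 ± 0.033 (adjusted p = 0.043), which rose to 0.0538 with the replicate number as a block and was lost without DMSO replicate 1 (0.0695), 2 (0.0649) or 3 (0.177) and without IN10018 replicate 1 (0.0692) or 3 (0.215). That call was also lost with library totals (0.0646), by limma-trend (0.0506), without the filter on low counts (0.096) and in libraries thinned to the smallest total (0.0541). *Dkc1* with defactinib (-0.037) and GSK2256098 (-0.0096) missed the threshold, at adjusted p of 0.482 and 0.901.

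*Nop10*, the smallest core protein of the box H/ACA particle (chr2:112261926-112263269, plus strand), measured 87.7, 78.4 and 83.3 CPM with DMSO. It measured 116, 115 and 103 CPM with VS-4718, 98.1, 92.6 and 100 CPM with GSK2256098 and 101.2, 96.0 and 105 CPM with IN10018, all above every DMSO library. With PROTAC FAK degrader 1 it measured 64.0, 52.8 and 56.0 CPM, all below. With BSJ-04-0146 (85.5, 93.6 and 97.9 CPM), GSK215 (86.3, 80.5 and 80.9 CPM) and defactinib (73.4, 82.7 and 81.5 CPM) its libraries overlapped those of DMSO. The rise was 0.42 ± 0.054 (adjusted p = 4.58e-08) with VS-4718, 0.28 ± 0.055 (0.000523) with IN10018, 0.22 ± 0.055 (0.00489) with GSK2256098 and 0.15 ± 0.057 (0.021) with BSJ-04-0146. The call with GSK2256098 was lost without DMSO replicate 2 (adjusted p = 0.0577), and that with BSJ-04-0146 without DMSO replicate 2 (0.143) or BSJ-04-0146 replicate 2 (0.0671) or 3 (0.155) and in libraries thinned to the smallest total (0.0879). With PROTAC FAK degrader 1 *Nop10* changed by -0.52. *Nhp2* and *Gar1*, the remaining core proteins of this particle, were lower with all 3 PROTACs, at -0.78 and -0.37 with PROTAC FAK degrader 1.

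The small subunit factors were lower in 16 of 16 genes with GSK215 and with BSJ-04-0146, and in 13 of 16 with PROTAC FAK degrader 1, where 1 was higher. *Heatr1*, a processome protein that also supports RNA polymerase I transcription (chr13:12395027-12440289, plus strand), measured 254, 256 and 256 CPM with DMSO. It measured 135, 143 and 137 CPM with PROTAC FAK degrader 1, 168, 172 and 156 CPM with GSK215 and 138, 142 and 148 CPM with BSJ-04-0146. With the kinase inhibitors it measured 244, 234 and 237 CPM (defactinib), 218, 226 and 231 CPM (VS-4718), 220, 232 and 225 CPM (GSK2256098) and 205, 209 and 206 CPM (IN10018). No treated library reached the lowest DMSO library, and the change was -0.88 ± 0.034 (adjusted p = 5.28e-24), -0.63 ± 0.034 (8.43e-19) and -0.84 ± 0.034 (1.22e-22) with the PROTACs in that order. With IN10018 it was -0.30 ± 0.033 (adjusted p = 1.34e-08), the largest decrease of the 41 genes with that inhibitor. The smallest change of *Heatr1*, -0.10 ± 0.032 with defactinib (adjusted p = 0.0216), was lost without defactinib replicate 2 (0.093) or 3 (0.0591) and without DMSO replicate 2 (0.0658) or 3 (0.0551), and with library totals in place of TMM (0.081).

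With PROTAC FAK degrader 1 the deepest small subunit decreases were those of *Bysl*, *Utp20* and *Rrp12*. *Bysl*, a late pre-40S factor (chr17:47599331-47611492, minus strand), measured 86.8, 86.9 and 86.9 CPM with DMSO and 37.0, 35.3 and 36.3 CPM with PROTAC FAK degrader 1, a change of -1.26 ± 0.051 (adjusted p = 3.36e-23). *Bysl* shares 9.37% of its exon bases with *Ccnd3* on the opposite strand, and the strand setting of the counts was not given in the sources used here. *Utp20*, a processome scaffold, changed by -1.23 ± 0.034 with PROTAC FAK degrader 1, -0.58 ± 0.033 with GSK215 and -0.74 ± 0.033 with BSJ-04-0146. *Rrp12*, a factor in export of pre-ribosomes (chr19:41862851-41896173, minus strand), measured 112, 110 and 114 CPM with DMSO, 65.7, 64.2 and 65.8 CPM with GSK215 and 60.9, 60.6 and 64.5 CPM with BSJ-04-0146. Its change was -0.78 ± 0.042 (adjusted p = 9.03e-19) with GSK215 and -0.85 ± 0.042 (6.67e-20) with BSJ-04-0146, next after *Ncl* in both, and -1.19 with PROTAC FAK degrader 1. With IN10018 *Rrp12* was -0.25 ± 0.039 (adjusted p = 3.1e-05).

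A few small subunit genes did not follow the others with PROTAC FAK degrader 1. *Nop14*, a processome protein (chr5:34638536-34660148, minus strand), measured 158, 159 and 158 CPM with DMSO and 184, 183 and 175 CPM with PROTAC FAK degrader 1. It measured 100, 96.1 and 97.3 CPM with GSK215 and 100.7, 98.3 and 100 CPM with BSJ-04-0146. The libraries of PROTAC FAK degrader 1 lay wholly above DMSO and those of the low-dose PROTACs wholly below, at changes of 0.19 ± 0.031 (adjusted p = 1.03e-06), -0.70 and -0.67. *Imp3*, a component of the U3 particle (chr9:56937475-56938398, plus strand), measured 47.6, 50.2 and 46.8 CPM with DMSO and 52.6, 44.9 and 47.4 CPM with PROTAC FAK degrader 1, which overlapped. *Imp3* was 33.9, 31.4 and 36.7 CPM with VS-4718, a change of -0.50 ± 0.059 (adjusted p = 6.13e-09), and 39.51, 38.35 and 41.05 CPM with defactinib, a change of -0.28 ± 0.058 (adjusted p = 0.000387), the largest decrease with that inhibitor. *Utp15*, an early-binding subunit of the processome, was -0.026 ± 0.037 with PROTAC FAK degrader 1 (95% interval -0.10 to 0.052). With GSK2256098 the largest decreases of the 41 genes were in this group, *Imp4* at -0.21 ± 0.038 (adjusted p = 0.000121) and *Dcaf13* at -0.19 ± 0.040 (adjusted p = 0.00133).

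Of the large subunit factors, 12 of 12 were lower with PROTAC FAK degrader 1 and BSJ-04-0146 and 11 of 12 with GSK215. *Pes1*, a member of the PeBoW complex with *Bop1* and *Wdr12* (chr11:3963975-3980004, plus strand), measured 365, 354 and 352 CPM with DMSO. It measured 291, 287 and 275 CPM with PROTAC FAK degrader 1, 232, 234 and 239 CPM with GSK215 and 246, 250 and 249 CPM with BSJ-04-0146. With the kinase inhibitors it measured 308, 315 and 314 CPM (defactinib), 343, 341 and 335 CPM (VS-4718), 332, 329 and 329 CPM (GSK2256098) and 357, 340 and 363 CPM (IN10018). All but the IN10018 libraries lay below DMSO, and the low-dose PROTACs were lowest. The change was -0.33 ± 0.029 (adjusted p = 7.35e-13) with PROTAC FAK degrader 1, -0.60 ± 0.030 (4.09e-20) with GSK215, -0.52 ± 0.030 (2.95e-18) with BSJ-04-0146, -0.19 ± 0.029 (3.13e-06) with defactinib and -0.12 ± 0.029 (0.00544) with GSK2256098. With VS-4718 it was -0.074 ± 0.029 (adjusted p = 0.0383), lost without DMSO replicate 1 (0.102) or VS-4718 replicate 2 (0.0718) or 3 (0.0627), with library totals (0.316) and without the filter on low counts (0.106), and with IN10018 it was -0.015 ± 0.029.

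The 3 PeBoW genes were not lowered alike by PROTAC FAK degrader 1, since *Bop1* changed by -1.01 ± 0.039 and *Wdr12* by -0.69 ± 0.042, while their values with GSK215 were -0.49 ± 0.039 and -0.69 ± 0.042. *Ppan*, a pre-60S factor, rose by 0.13 ± 0.039 with VS-4718 (adjusted p = 0.00597), which was lost without DMSO replicate 1 (0.0677) or VS-4718 replicate 1 (0.138) and in libraries thinned to the smallest total (0.0583). *Noc3l*, a pre-60S export factor, was -0.076 ± 0.049 with GSK215 (adjusted p = 0.189, 95% interval -0.18 to 0.027). It was -0.54 ± 0.050 with PROTAC FAK degrader 1 and -0.25 ± 0.050 with BSJ-04-0146.

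The SD of the log2 fold change over the 41 genes was 0.36 with PROTAC FAK degrader 1, 0.17 with GSK215 and 0.19 with BSJ-04-0146. With PROTAC FAK degrader 1, 6 of the 41 genes were beyond 1 in size. All genes tested also spread widest there, with quartiles of -0.40 and 0.42. Their quartiles were -0.23 and 0.34 with GSK215 and -0.24 and 0.33 with BSJ-04-0146. The 5th and 95th percentiles of all genes with PROTAC FAK degrader 1 were -1.14 and 1.26. The wider spread and changes beyond 1 were thus not particular to the 41 genes. PROTAC FAK degrader 1, given at 1 μM, was not tested against the PROTACs given at 0.1 μM.

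At equal dose 11 pairs of compounds were compared directly, 10 at 1 μM and 1 at 0.1 μM, with *P* values adjusted over genes within each pair and not over pairs. At 1 μM the PROTAC gave lower levels than each inhibitor. Defactinib, VS-4718 and GSK2256098 were each higher than PROTAC FAK degrader 1 for 36 of 41 genes and IN10018 for 37, where 34.0, 34.3, 33.6 and 31.1% of all genes were higher. The median difference was 0.54, 0.44, 0.54 and 0.50. *Nolc1* differed most from PROTAC FAK degrader 1 for defactinib (1.23 ± 0.030, adjusted p = 1.73e-30), GSK2256098 (1.26 ± 0.030, 7.64e-31) and IN10018 (1.22 ± 0.030, 4.9e-30), and *Bysl* for VS-4718 (1.27 ± 0.051, 2.15e-23). Genes in the opposite direction numbered 3, 4, 3 and 1, where 34.9, 34.6, 34.1 and 32.4% of all genes were lower. *Nop14* was lower with all 4 inhibitors than with PROTAC FAK degrader 1, by -0.45 ± 0.031 (VS-4718) to -0.26 ± 0.031 (IN10018). *Npm1* and *Imp3* were lower with defactinib, VS-4718 and GSK2256098 than with PROTAC FAK degrader 1, and with VS-4718 the differences were -0.52 ± 0.030 and -0.51 ± 0.060.

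The kinase inhibitors differed less from each other, and in both directions. Defactinib and GSK2256098 were the closest pair, with 3 of 41 genes lower and none higher with defactinib (5.89 and 5.59% of all genes, 11.5% in all), or 3 lower and 1 higher with library totals. The 3 were *Nop10* (-0.29 ± 0.056, adjusted p = 0.000319), *Nop16* (-0.12 ± 0.039, 0.0489) and *Npm1* (-0.097 ± 0.030, 0.0286), and the 95% intervals of the other 38 lay within -0.23 and 0.19. VS-4718 gave 17 genes lower and 3 higher than GSK2256098 (12.8 and 14.3% of all genes), or 13 lower and 5 higher with library totals, with *Npm1* the largest difference (-0.45 ± 0.030, adjusted p = 1.4e-14). VS-4718 gave 16 lower and 11 higher than IN10018 (19.6 and 21.3% of all genes), again led by *Npm1* (-0.60 ± 0.030, adjusted p = 3.27e-19). Defactinib gave 7 lower and 15 higher than VS-4718 (18.0 and 16.0% of all genes), led by *Nop10* (-0.49 ± 0.055, adjusted p = 3.28e-09). Defactinib gave 10 lower and 13 higher than IN10018 (17.9 and 16.6% of all genes), led by *Imp3* (-0.37 ± 0.059, adjusted p = 4.04e-06). GSK2256098 gave 7 lower and 11 higher than IN10018 (9.78 and 11.2% of all genes), led by *Imp3* (-0.26 ± 0.058, adjusted p = 0.000813), and the total of 18 (20.9% of all genes differed) dropped to 10 without GSK2256098 replicate 2, to 11 without GSK2256098 replicate 3 and to 10 without IN10018 replicate 3.

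At 0.1 μM GSK215 gave 2 genes lower and 11 higher than BSJ-04-0146 (12.6 and 9.88% of all genes), with a median difference of 0.055, and 0 lower and 13 higher with library totals. *Heatr1* differed most, at 0.21 ± 0.036 (adjusted p = 1.88e-05), and the 2 lower genes were *Nop10* (-0.16 ± 0.059, 0.0389) and *Nhp2* (-0.12 ± 0.043, 0.039). The 95% intervals of the 28 genes that did not pass the threshold lay within -0.26 and 0.18, and the total of 13 (22.5% of all genes differed) dropped to 7 without BSJ-04-0146 replicate 2 and to 8 without GSK215 replicate 2.

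**Figure D4:**
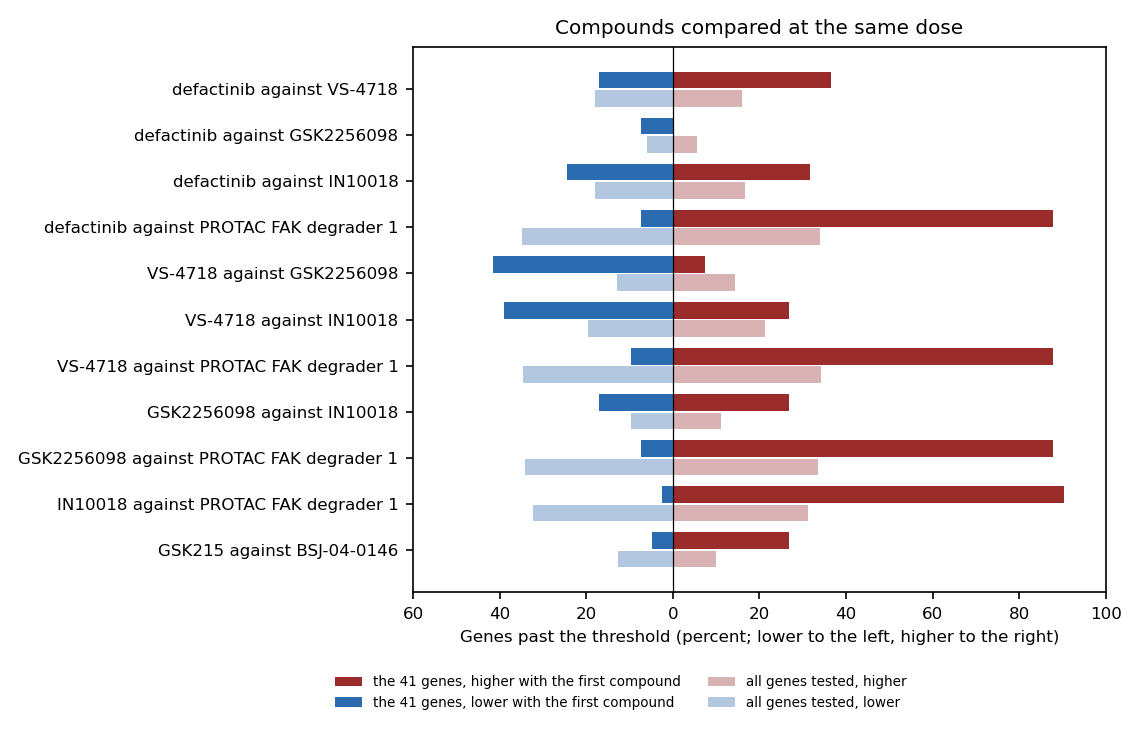
Share of the 41 genes (dark bars) and of all 16070 genes tested (light bars) that were lower (left) or higher (right) with the first compound of each pair than with the other, at 1 μM for the first 10 pairs and 0.1 μM for the last. The 4 kinase inhibitors were higher than PROTAC FAK degrader 1 for 36 or 37 of 41 genes, while defactinib and GSK2256098 differed for 3.

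Ribosome biogenesis genes outside the 41 were counted from lists of 13 RNA polymerase I transcription genes, 39 small subunit genes and 42 large subunit genes, of which 93 were tested and 1 was not analysed here. They were lower and higher in 77 and 12 of 93 with PROTAC FAK degrader 1 (32.7 and 34.1% of all genes), 88 and 0 with GSK215 (27.2 and 27.4%) and 87 and 2 with BSJ-04-0146 (26.9 and 27.7%), with medians of -0.42, -0.41 and -0.41. With the kinase inhibitors they were lower and higher in 33 and 1 with defactinib (11.0 and 11.4% of all genes), 38 and 9 with VS-4718 (18.9 and 20.4%), 31 and 0 with GSK2256098 (6.09 and 6.36%) and 27 and 0 with IN10018 (6.85 and 6.44%), with medians from -0.084 to -0.064. The largest change of each list with PROTAC FAK degrader 1 was *Nop2* (-1.34 ± 0.032), a ribosomal RNA methyltransferase of the large subunit list, *Cd3eap* (-1.22 ± 0.048), a subunit of RNA polymerase I, and *Nol10* (-1.06 ± 0.039) of the small subunit list. With GSK215 and BSJ-04-0146 the largest of each list was *Mybbp1a* (-0.80 ± 0.028 and -0.87 ± 0.028) for the large subunit, *Tcof1* (-0.65 ± 0.032 and -0.73 ± 0.032), the treacle protein of the nucleolus, for RNA polymerase I transcription and *Wdr36* (-0.64 ± 0.036 and -0.68 ± 0.036) for the small subunit. With the inhibitors the largest of the 3 lists together were *Rpf1* (defactinib, -0.31 ± 0.043), *Utp14a* (VS-4718, -0.53 ± 0.040), *Twistnb* (GSK2256098, -0.24 ± 0.051) and *Mdn1* (IN10018, -0.29 ± 0.041).

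*Myc*, which encodes a transcription factor known to activate many ribosome biogenesis genes, was lower with GSK215 and BSJ-04-0146 and higher with PROTAC FAK degrader 1. Only its mRNA was measured, and a link between MYC and the changes of the 41 genes was not tested. The mean level of *Myc* was 377 CPM with DMSO, 248 CPM with GSK215, 245 CPM with BSJ-04-0146 and 505 CPM with PROTAC FAK degrader 1. The change was -0.60 ± 0.034 (adjusted p = 2.93e-18) with GSK215, -0.62 ± 0.034 (1.11e-18) with BSJ-04-0146 and 0.42 ± 0.033 (1.49e-14) with PROTAC FAK degrader 1. *Myc* was -0.27 ± 0.033 with defactinib, -0.20 ± 0.033 with VS-4718 and -0.22 ± 0.033 with GSK2256098, and it was 0.066 ± 0.033 with IN10018 (adjusted p = 0.198). *Mycl* was 0.41 ± 0.15 with PROTAC FAK degrader 1, -0.80 ± 0.18 with GSK215 and -0.46 ± 0.17 with BSJ-04-0146. *Max*, the partner of MYC proteins, was -0.18 ± 0.039 with PROTAC FAK degrader 1, -0.10 ± 0.039 with GSK215 and 0.14 ± 0.039 with BSJ-04-0146, and *Mycn* had at most 7 counts in a library and was not tested.

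In DMSO the 41 genes spanned a wide range of levels. Per kilobase of annotated exon sequence, with all transcripts of a gene joined, *Npm1* was highest at 1117 CPM, followed by *Ncl* (322), *Nhp2* (246), *Nop56* (153) and *Pes1* (118), and *Dcaf13* was lowest at 6.10. Of the 41 genes 8 hold 23 annotated small nucleolar RNA genes between them, 5 of these within *Nop56*, 4 within *Nop58* and 3 each within *Ncl*, *Gnl3* and *Wdr43*. Exon bases were shared with another annotated gene in 20 of the 41, most of all *Tsr1*, with 32.3% shared with *Srr* on the opposite strand, and *Noc2l*, with 20.9% shared with *Samd11*, which had only 7 to 42 counts in a library. Reads from such overlaps cannot be told apart without the strand setting, so *Tsr1* is uncertain in this respect.

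Across the 24 libraries most of the 41 genes moved together. The Pearson correlation of a gene's log2 CPM with the mean of the other members was over 0.9 for 25 of 41, highest for *Rrp9* (0.977), and it was lowest for *Imp3* (0.30), *Nop14* (0.34), *Npm1* (0.49) and *Nop10* (0.50). Among 16029 tested genes outside the 41, 467 had a correlation over 0.9 with the mean of the 41, and 33 of these were among the 93 other ribosome biogenesis genes. The 10 most alike were *Tcof1* (0.989), *Ddx18* (0.989), *Ddx21* (0.988), *Wdr36* (0.987), *Mapk6*, *Prkar2a*, *Lyar*, *Lrrc59*, *Ptbp1* and *Bpnt1* (0.984 each). The points are libraries of 8 groups that share depth and treatment, so these values describe the pattern across compounds.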

How the data were processed

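RNA from 24 cultures of MS03 cells was sequenced after poly(A) selection (NEBNext Ultra II). The authors deposited raw read counts per Ensembl gene and library, with no normalization. The submitters' processing notes name Trimmomatic 0.36, STAR 2.5.2b, featureCounts of Subread 1.5.2 and the build GRCm38, and the annotation release and strand setting are not given in the sources used here. Every count column was matched to a sample by its library number. The model was fitted with edgeR 4.0.16 under R 4.3.3, using TMM scaling, the filterByExpr filter, glmQLFit and glmQLFTest with a coefficient for each of 8 groups (residual degrees of freedom 16), and 18 comparisons were made, 7 with DMSO and 11 between compounds at equal dose. *P* values were two-sided. Standard errors were derived from the F statistics, and intervals are 95% intervals from the t distribution with these degrees of freedom. The model was run on simulated counts in which few genes changed, and only in the group of PROTAC FAK degrader 1. In the data 32.7% of genes were lower and 34.1% higher there, so that run does not check a comparison of this kind. TMM compares shares of the RNA and cannot show a change in total RNA per cell. Over the 24 pairs of replicates the chi-square statistic of their counts was 1.80 to 9.44 times its degrees of freedom, so no library was treated as a copy.

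The 41 genes, the lists of other genes and the tests were chosen with earlier results of these data known. Genes were named by a written rule, namely 1 gene for each role in every library, the 2 largest increases and decreases among genes past the threshold for each compound, the largest difference in each pair, and genes that went against the direction of most. *Nolc1*, *Npm1*, *Nop10*, *Nop14* and *Bysl* came under this rule, whereas *Polr1a*, *Nop56*, *Nop58*, *Nhp2*, *Gar1*, *Gnl3*, *Utp20*, *Bop1*, *Wdr12*, *Noc3l* and *Utp15* were named after their values were seen. *Nop16* and *Rrp9* were also named after their values were seen. Each comparison was repeated with DESeq2 1.42.0 and the size factors of that tool, with library totals, by limma-trend (limma 3.58.1) on log2(CPM + 4), without a filter on low counts, with a block for replicate number, with only the 6 libraries concerned, and without each library in turn. Libraries thinned to 14472462 counts were an alternative added after seeing the data. Positions are from GENCODE M21 and promoter windows from RefSeq (GRCm38.p6). One further marker of the Schwann cell list is not reported here.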

Additional observations from a re-analysis of the deposited data

How the results depend on the processing

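The median change of the 41 genes was negative for all 7 compounds under every alternative, and its counts of lower genes exceeded its counts of higher genes throughout. With library totals in place of TMM the median was -0.42 with BSJ-04-0146, -0.070 with defactinib, -0.40 with GSK215, -0.55 with PROTAC FAK degrader 1 and -0.11 with VS-4718, a shift that all genes shared, since the median over all genes tested was then 0.13, 0.013, 0.14, 0.086 and 0.043. Without the filter the median was -0.55 with BSJ-04-0146. By limma-trend it was -0.49 with GSK215 and -0.62 with PROTAC FAK degrader 1, and in thinned libraries -0.62 with PROTAC FAK degrader 1, and the cause was not tested. Without 1 library it ranged from -0.52 to -0.50 with GSK215, from -0.13 to -0.094 with IN10018 (-0.13 without IN10018 replicate 1), from -0.64 to -0.62 with PROTAC FAK degrader 1 and from -0.17 to -0.14 with VS-4718.

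Between compounds, the total of genes past the threshold for defactinib and GSK2256098 was 1 by limma-trend and 6 with only the 6 libraries of the comparison, and that for GSK2256098 and IN10018 was 11 without the filter. Without 1 library it ranged from 7 to 11 for GSK215 and BSJ-04-0146 and from 10 to 13 for GSK2256098 and IN10018. The other totals stayed within 1.5 times their values.

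No shared effect of the replicate number was detected, which does not show whether same-numbered cultures were handled together. The deviations of same-numbered libraries correlated over 0.1 in 2 of 84 pairs (-0.20 to 0.13) and in 0 of the 21 pairs with DMSO. With the replicate number as a block the calls against DMSO were 38 lower and 1 higher with PROTAC FAK degrader 1, 39 and 0 with GSK215 and 40 and 1 with BSJ-04-0146, and the only named call lost was *Dkc1* with IN10018 (-0.098, adjusted p = 0.0538).

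Of 70 named results, 57 kept their direction and their side of the threshold under every alternative. The sign turned for *Dkc1* with GSK2256098 (0.0033 with library totals, and from -0.025 to 0.0040 without 1 library), *Fbl* with VS-4718 (0.020 with library totals), *Fbl* with GSK2256098 (from -0.037 to 0.028 without 1 library) and *Pes1* with IN10018 (from -0.035 to 0.011 without 1 library), none of which passed the threshold. *Fbl* with defactinib (adjusted p = 0.061) passed the threshold without the filter (0.0171), with only the 6 libraries of the comparison (0.00949) and without defactinib replicate 3 (0.0312). The calls that were lost were changes under 0.23 in size with the kinase inhibitors or *Nop10* with BSJ-04-0146, so at this depth and with 3 libraries a group the calls of changes below that size were the least secure. All calls rest on relative levels of polyadenylated RNA from a single cell line.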
